A study of Mus musculus with 12 samples.

Results

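Interferon-stimulated genes are the genes that a cell switches on when its receptors bind interferons. A set of 38 of them was followed in mouse lung, listed by name with earlier results of these data known. The set holds 9 guanylate-binding protein (Gbp) and immunity-related GTPase (Irg) genes, best known as targets of interferon gamma, and 29 others, most of them best known as targets of type I interferons. Irf1, a factor also induced by interferon gamma, is among the 29. Of the 38 genes, 35 have a probe set paired with them alone, among 18194 genes that do. These are 8 of the 9 Gbp and Irg genes, 19 of 21 antiviral effectors and modifiers, 4 of 4 sensors and 4 of 4 transcription factors. Gbp4 and Isg15 share their probe sets with another gene, so no value is given for them, and Ifi44 was not analysed here. Each gene was read on its brightest probe set, taken as the highest mean over all 12 arrays.

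Whole-lung total RNA of C57BL/6 mice had been hybridized to Affymetrix arrays, 1 array per sample. The 4 groups of 3 arrays were FIZZ2 knockout lungs after bleomycin, FIZZ2 knockout lungs after saline, wild type lungs after bleomycin and wild type lungs after saline. All lungs were taken at day 21 after the agent had been given into the trachea, and had been perfused with PBS. Bleomycin is a DNA-breaking drug whose lung injury serves as a mouse model of fibrosis. FIZZ2, also called RELM-beta, is the secreted product of Retnlb. The labels used here give no dose, age or sex and do not describe the targeted allele. Whether each replicate was an animal of its own is not stated either. The p-values therefore reflect only how far these arrays vary, which may be technical, and 3 arrays per group limit the precision.

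Type I interferons signal through the receptor IFNAR to a complex that holds STAT2 and IRF9 and binds the interferon-stimulated response element (ISRE) in promoters. Interferon gamma, made mainly by NK and T cells, signals through IFNGR and acts on promoters at the gamma-activated site (GAS). The products include sensors of viral RNA, enzymes that degrade it or block its copying, and GTPases that attack membranes around intracellular pathogens. In lung, epithelial cells, endothelium and leukocytes can all respond, and the genes are best known there from infection by respiratory viruses.

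The promoters of 8 of these genes are shown, chosen with earlier results of these data known. Their letters match the ISRE or the GAS, as do those of other listed genes. Whether these matches act in lung was not measured. The RefSeq table for GRCm38.p6 holds a window of 300 bases (250 before and 50 after the gene's start) for 28 of the 38 genes, 26 of them measured. The ISRE was searched as GAAA, any 2 bases and GAAA again, or on the other strand as TTTC, any 2 bases and TTTC, and the GAS as TTCNNNGAA, which reads the same on both strands. Where the GAAA unit stands 3 times in a row, matches overlap, and all their letters are in capitals. The 250 bases before the start are printed 5′ to 3′ on the strand of the gene. The genes are Oas1a (chr5:120907526-120907775, minus strand), Rsad2 (chr12:26456453-26456702, minus strand), Ifit1 (chr19:34640639-34640888, plus strand), Irgm1 (chr11:48871421-48871670, minus strand), Gbp2 (chr3:142620413-142620662, plus strand), Igtp (chr11:58199306-58199555, plus strand), Irgm2 (chr11:58214727-58214976, plus strand) and Irf1 (chr11:53769764-53770013, plus strand). In Irf1 the capitals mark a GAS, in Oas1a, Igtp and Irgm2 first a GAS and then an ISRE, and in the other genes the ISRE.
Oas1a: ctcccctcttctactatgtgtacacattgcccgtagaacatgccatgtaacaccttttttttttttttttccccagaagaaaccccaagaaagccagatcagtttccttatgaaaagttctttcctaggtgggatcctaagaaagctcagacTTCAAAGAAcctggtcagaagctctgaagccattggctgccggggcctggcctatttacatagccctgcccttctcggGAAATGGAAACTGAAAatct
Rsad2: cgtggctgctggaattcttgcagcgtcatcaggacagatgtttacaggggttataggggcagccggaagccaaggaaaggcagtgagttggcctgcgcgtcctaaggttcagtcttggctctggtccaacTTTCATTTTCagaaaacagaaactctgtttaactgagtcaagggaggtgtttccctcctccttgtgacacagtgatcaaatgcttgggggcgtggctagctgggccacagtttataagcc
Ifit1: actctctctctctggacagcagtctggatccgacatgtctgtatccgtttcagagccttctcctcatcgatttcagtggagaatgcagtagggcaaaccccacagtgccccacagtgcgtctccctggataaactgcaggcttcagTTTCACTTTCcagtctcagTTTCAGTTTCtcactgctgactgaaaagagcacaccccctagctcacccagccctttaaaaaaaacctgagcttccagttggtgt
Irgm1: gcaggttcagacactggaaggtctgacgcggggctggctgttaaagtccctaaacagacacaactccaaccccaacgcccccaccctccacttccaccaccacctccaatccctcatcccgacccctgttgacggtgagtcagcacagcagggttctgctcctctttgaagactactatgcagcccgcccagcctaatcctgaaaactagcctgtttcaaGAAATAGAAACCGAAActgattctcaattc
Gbp2: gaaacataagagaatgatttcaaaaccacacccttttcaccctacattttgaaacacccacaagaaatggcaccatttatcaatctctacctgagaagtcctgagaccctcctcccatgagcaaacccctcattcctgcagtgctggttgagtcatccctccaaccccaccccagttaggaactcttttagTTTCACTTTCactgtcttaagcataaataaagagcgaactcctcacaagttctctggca
Igtp: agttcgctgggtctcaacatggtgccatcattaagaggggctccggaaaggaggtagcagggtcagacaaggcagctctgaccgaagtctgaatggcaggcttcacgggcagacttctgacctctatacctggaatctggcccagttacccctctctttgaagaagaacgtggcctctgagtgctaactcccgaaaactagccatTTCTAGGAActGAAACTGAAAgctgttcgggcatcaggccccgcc
Irgm2: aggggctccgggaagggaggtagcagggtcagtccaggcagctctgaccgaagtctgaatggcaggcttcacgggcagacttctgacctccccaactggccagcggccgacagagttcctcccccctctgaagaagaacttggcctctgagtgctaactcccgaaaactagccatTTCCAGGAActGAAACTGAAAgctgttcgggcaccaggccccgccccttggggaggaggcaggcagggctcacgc
Irf1: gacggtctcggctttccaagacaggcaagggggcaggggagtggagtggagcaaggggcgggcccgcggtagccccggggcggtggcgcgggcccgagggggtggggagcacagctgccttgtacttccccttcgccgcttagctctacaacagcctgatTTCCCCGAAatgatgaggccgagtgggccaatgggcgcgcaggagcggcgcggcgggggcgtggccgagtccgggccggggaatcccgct

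An ISRE match lay in 17 of 28 listed genes, and in 53.1% of their windows, against 3.44% of all 32851 promoter windows of the table. The form with 3 GAAA units lay in 5 genes (Bst2, Gbp3, Irgm1, Isg15 and Oas1a), against 0.116% of all windows. A GAS match lay in 9 genes and 28.1% of their windows, against 8.30% of all windows. Each of the 6 Gbp and Irg genes with a window held an ISRE match and 3 held a GAS match, against 11 and 6 of the 22 other genes. Windows of 6 genes (Bst2, Gbp7, Ifitm3, Igtp, Irgm2 and Oas1a) held both elements, as did 0.454% of all windows. In Igtp and Irgm2, which are next to each other in the order of protein-coding genes, 11 bases separate the first letter of the GAS from that of the ISRE in both windows. Their windows share an identical run of 61 bases. A match is a description of these letters, and factor binding was not measured.

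The array medians lay between 5.58 and 5.68 on the log2 scale, and arrays of the same group correlated across probe sets at 0.988 to 0.997 (12 pairs). Retnlb itself was dim, with log2 values of 3.49 to 3.72 in knockout bleomycin, 3.54 to 3.83 in knockout saline, 3.80 to 4.13 in wild type bleomycin and 3.57 to 3.84 in wild type saline lungs. At that level it offers no check of the genotype. Markers of lung epithelium were bright on all arrays, with a mean log2 level of 12.3 to 12.9, as the tissue label says. In bulk tissue, fewer cells of a type and less RNA per cell cannot be told apart.

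The 35 measured interferon-stimulated genes spanned a wide range of signal on these arrays. Their mean log2 value over the 12 arrays ran between 4.93 for Mx1 and 12.53 for Ifitm3, with a median of 8.63, against 6.94 over all genes, and 28 of 35 lay above that all-gene median. Intensities of different probe sets are not comparable as transcript amounts, so these values only place each gene on the array. Ifitm3 and Ifitm1, membrane proteins that block virus entry, lay at percentiles 99.5 and 95 of all genes. Mx1, a dynamin-like GTPase that is not functional in many inbred strains, C57BL/6 among them, lay at percentile 30.6.

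In wild type lungs, bleomycin was followed by higher levels of Rsad2, Oas1a, Zbp1, Ddx58 and other antiviral genes and by a lower level of Irf1. Of the 27 genes other than Gbp and Irg, 9 rose by 1.34 to 1.86-fold, 3 fell and 15 did not pass. Of the 8 Gbp and Irg genes, 1 rose (Iigp1), 1 fell (Gbp2) and 6 did not pass, and 6 of the 8 changes were negative. Of the 35 genes, 10 rose and 4 fell (limma, Benjamini-Hochberg adjusted p under 0.05 over all genes tested), and 21 did not pass. Over all genes, 13.3% rose and 14.4% fell, 27.7% in either direction. The arrays did not overlap between the wild type groups for 21 listed genes, 13 with bleomycin arrays above and 8 below, against 17.2% and 22.8% of all genes. The median log2 change was 0.10 over the 35 genes and -0.04 over all genes. The calls of Rsad2, Oas1a, Oas2, Zbp1, Ddx58 and Iigp1, and the fall of Irf1, held in the 19 alternative settings other than single probe sets. Taken alone, a dimmer probe set of Rsad2 and both dimmer ones of Ddx58 did not pass. Without wild type bleomycin replicate 3, 6 genes rose. Without wild type bleomycin replicate 1 or 2 or wild type saline replicate 1, 1 gene fell (Irf1), and without wild type saline replicate 2, 2 fell.

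Among the antiviral effectors, Rsad2 rose most. Rsad2, or viperin, is a radical-SAM enzyme that makes a chain-terminating nucleotide. Its log2 values were 8.66, 8.43 and 8.46 in wild type bleomycin lungs, against 7.55, 8.02 and 7.28 in wild type saline lungs, with no overlap. The log2 change was 0.90 ± 0.23 (SE of the limma fit, n = 3 per group), or 1.86-fold, with adjusted p = 0.0114. A further probe set of Rsad2 also passed, at 1.08, and another did not, at 0.50. Cmpk2, a mitochondrial nucleotide kinase and the direct neighbour of Rsad2 in the order of protein-coding genes, went the other way, with values of 6.68, 6.97 and 7.13 after bleomycin and 7.58, 7.16 and 7.21 after saline. The arrays of Cmpk2 did not overlap, but its log2 change of -0.39 ± 0.16 did not pass (adjusted p = 0.0821), and its second probe set gave -0.01.

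The OAS enzymes make short adenylate chains that switch on RNase L, which cuts viral and cellular RNA. Oas1a had log2 values of 8.71, 8.67 and 9.02 in wild type bleomycin lungs and 8.09, 8.12 and 7.78 in wild type saline lungs. Every bleomycin array of Oas1a lay above every saline array, and the change was 0.80 ± 0.15 (1.75-fold, adjusted p = 0.00133). Oas2 read 7.80, 7.66 and 7.69 after bleomycin, against 7.32, 7.08 and 7.03 after saline (log2 change 0.57 ± 0.15, adjusted p = 0.0119). Oasl2, an OAS-like protein, rose by 0.43 ± 0.14 (adjusted p = 0.0351). Its neighbour Oasl1 did not pass, at 0.20 (adjusted p = 0.346). Nor did Oas3, which reached 0.45 (adjusted p = 0.0584) with arrays that did not overlap.

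Mx1 read 5.25, 5.18 and 5.44 in wild type bleomycin lungs and 4.66, 4.56 and 4.58 in wild type saline lungs. It rose by 0.69 ± 0.20 (1.61-fold, adjusted p = 0.0209), while its paralog Mx2 had a log2 change of 0.04 (adjusted p = 0.834). Ifit1, which binds viral RNA caps and blocks translation, read 8.64, 8.90 and 9.17 after bleomycin, against 8.37, 8.51 and 7.98 after saline. The arrays of Ifit1 did not overlap, and it rose by 0.61 ± 0.19 (1.53-fold, adjusted p = 0.0291). Ifit2 and Ifit3 of the same cluster had log2 changes of 0.28 (adjusted p = 0.0789) and 0.12 (adjusted p = 0.528).

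Among the effectors, 2 genes fell, both of them bright. Ifitm1 read 10.40, 10.11 and 10.60 in wild type bleomycin lungs, against 10.91, 10.72 and 11.05 in wild type saline lungs. It fell by 0.52 ± 0.17 on the log2 scale (adjusted p = 0.0324), whereas its neighbour Ifitm3 did not pass (adjusted p = 0.974). Ifi35, a leucine zipper protein, had a log2 change of -0.27 (adjusted p = 0.0444), but its call held in 4 of 19 alternative settings, and its other probe sets did not pass (-0.16 and -0.14). Of the 11 effectors that did not pass, Usp18, which removes ISG15 from proteins and dampens interferon receptors, had a log2 change of -0.02. Bst2, or tetherin, which holds budding virus at the cell surface, had 0.19, the apoptosis factor Xaf1 -0.04 and the ADP-ribosyltransferase Parp14 -0.18.

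Of the 4 sensors, 2 rose in wild type lungs and 2 did not pass. Ddx58, the cytosolic RNA sensor RIG-I, read 8.72, 8.88 and 9.07 in wild type bleomycin lungs and 8.51, 8.37 and 7.90 in wild type saline lungs. The groups did not overlap and the log2 change was 0.63 ± 0.13 (1.55-fold, adjusted p = 0.00369), though its 2 dimmer probe sets gave 0.49 and 0.33 and did not pass. Zbp1, a sensor of Z-form nucleic acid that starts necroptosis, read 7.44, 7.04 and 7.37 after bleomycin, against 6.50, 6.69 and 6.26 after saline. It rose by 0.80 ± 0.16 (1.74-fold, adjusted p = 0.00245). The RIG-I relatives Dhx58 (LGP2) and Ifih1 (MDA5) had log2 changes of 0.31 (adjusted p = 0.0673) and 0.10 (adjusted p = 0.538).

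The transcription factors split. Irf7, which drives interferon alpha genes, rose by 0.48 ± 0.15 (adjusted p = 0.0317), with 7.87, 7.71 and 7.89 in wild type bleomycin lungs and 7.42, 7.61 and 7.01 in wild type saline lungs. Irf1, a factor induced through the GAS by interferon gamma, read 9.73, 9.99 and 10.10 after bleomycin, against 10.38, 10.31 and 10.43 after saline. All bleomycin arrays of Irf1 lay below all saline arrays, and it fell by 0.43 ± 0.09 on the log2 scale (to 0.742 of the saline level, adjusted p = 0.0041). Irf9 and Stat2, which act together at the ISRE, had log2 changes of 0.09 (adjusted p = 0.615) and 0.02 (adjusted p = 0.924), and a second probe set of Stat2 read 0.50 (adjusted p = 0.303).

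Of the 8 Gbp and Irg genes, 1 rose, 1 fell and 6 did not pass in wild type lungs. Iigp1, an Irg GTPase that loads onto vacuoles of parasites, stood apart from the others with 10.24, 9.67 and 9.92 after bleomycin, against 9.02, 9.29 and 8.91 after saline. It rose by 0.87 ± 0.21 (1.83-fold, adjusted p = 0.00811), and its second probe set by 1.01. Gbp2, a guanylate-binding protein that coats bacteria and parasite vacuoles, read 9.25, 9.45 and 9.63 after bleomycin and 9.91, 9.87 and 9.71 after saline. The arrays of Gbp2 did not overlap, and it fell by 0.39 ± 0.12 on the log2 scale (adjusted p = 0.0298). Gbp7 (-0.35), Irgm2 (-0.33) and Igtp (-0.32) had bleomycin arrays below all saline arrays without passing (adjusted p = 0.0731, 0.0583 and 0.0873). Gbp6 (-0.26), Gbp3 (-0.24) and Irgm1 (0.30) did not pass and had arrays that overlapped. Irgm1 and Irgm2 are regulators that keep the other Irg GTPases off host membranes.

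**Figure D1:**
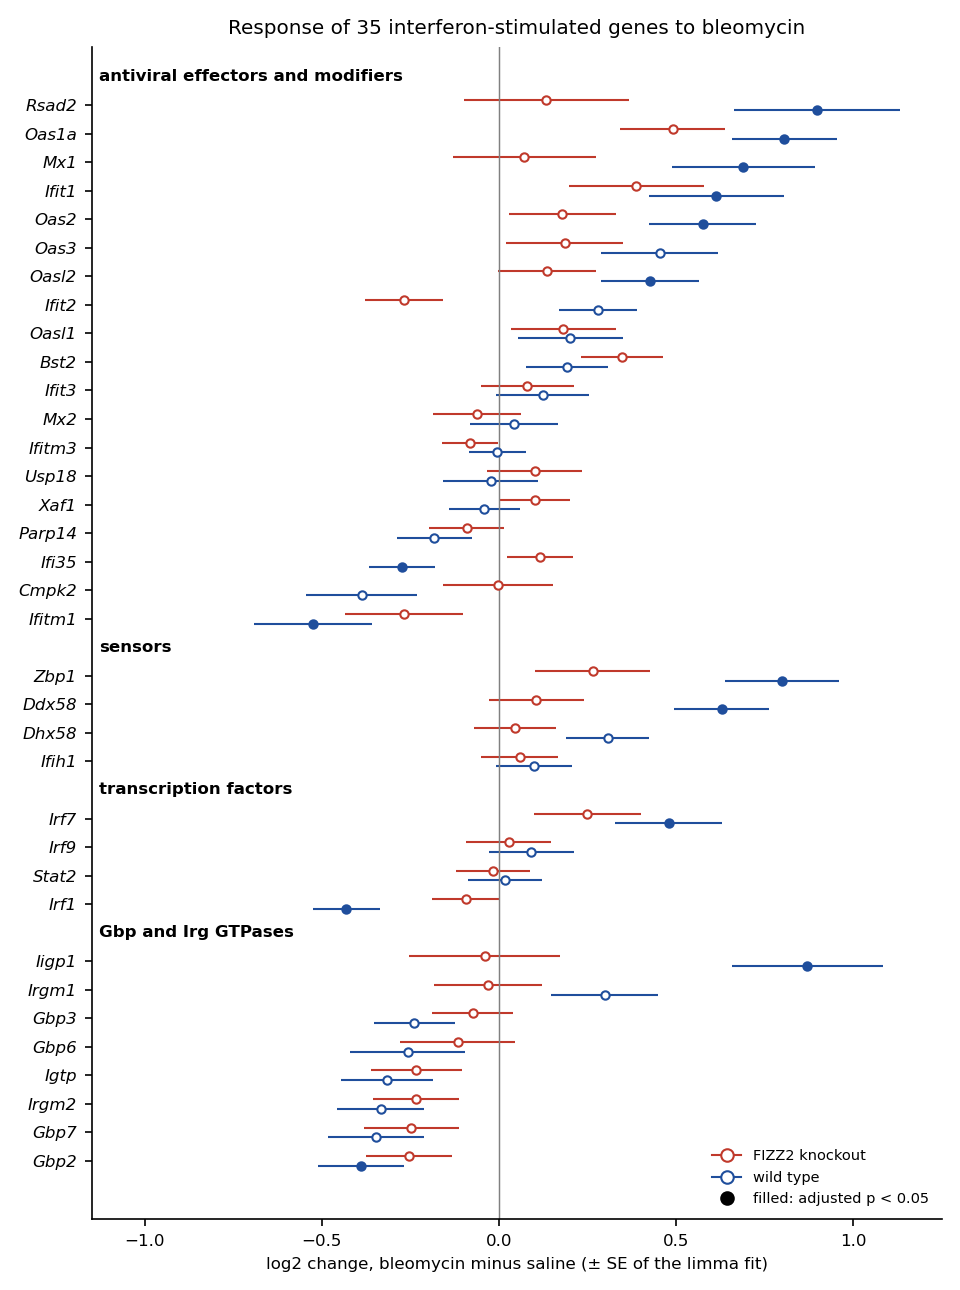
Log2 change with bleomycin of the 35 measured interferon-stimulated genes, in FIZZ2 knockout lungs (red) and wild type lungs (blue), grouped by role. Points are changes, bars are ± SE of the limma fit over 3 arrays per group, and filled points passed at an adjusted p under 0.05. Of the wild type points 14 are filled, and none of the knockout points is.

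In FIZZ2 knockout lungs none of the 35 genes passed for bleomycin against saline, where 3.26% of all genes did (1.98% higher and 1.29% lower). At an unadjusted p under 0.05 in the limma fit there were 3 (Oas1a and Bst2 higher, Ifit2 lower), against 18% of all genes. The median log2 change over the listed genes was 0.04, against 0.01 over all genes. The arrays did not overlap for 7 listed genes, 5 with bleomycin above and 2 below, against 15.2% and 11.8% of all genes.

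Oas1a had the largest knockout change, with log2 values of 8.19, 8.44 and 8.79 in knockout bleomycin lungs, against 7.95, 7.89 and 8.12 in knockout saline lungs. The groups of Oas1a did not overlap, and the change was 0.49 ± 0.15 (adjusted p = 0.0968). It passed once knockout bleomycin replicate 1 was left out. Bst2 read 8.68, 8.73 and 8.90 after bleomycin and 8.62, 8.29 and 8.36 after saline (0.35 ± 0.12, adjusted p = 0.129). Ifit1 changed by 0.39 ± 0.19 (adjusted p = 0.31) with overlapping arrays. For Rsad2, knockout bleomycin lungs read 7.74, 8.06 and 8.46, against 7.96, 7.50 and 8.40 in knockout saline lungs, a log2 change of 0.13 ± 0.23 (adjusted p = 0.823). The knockout arrays of Rsad2 covered nearly the same range after both agents. Mx1 read 4.58, 4.68 and 5.61 after bleomycin and 4.95, 4.79 and 4.92 after saline, so a single array lay above the others (log2 change 0.07, adjusted p = 0.895).

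The 8 Gbp and Irg genes all had negative log2 changes in knockout lungs, between -0.26 for Gbp2 and -0.03 for Irgm1, and none passed. For Gbp2 the values were 9.65, 9.89 and 9.66 in knockout bleomycin lungs and 10.21, 9.94 and 9.82 in knockout saline lungs, which overlap. Iigp1, the gene that rose in wild type, read 8.66, 9.38 and 9.45 after bleomycin, against 9.52, 9.17 and 8.93 after saline (log2 change -0.04 ± 0.21, adjusted p = 0.95). Its knockout arrays overlapped throughout.

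**Figure D2:**
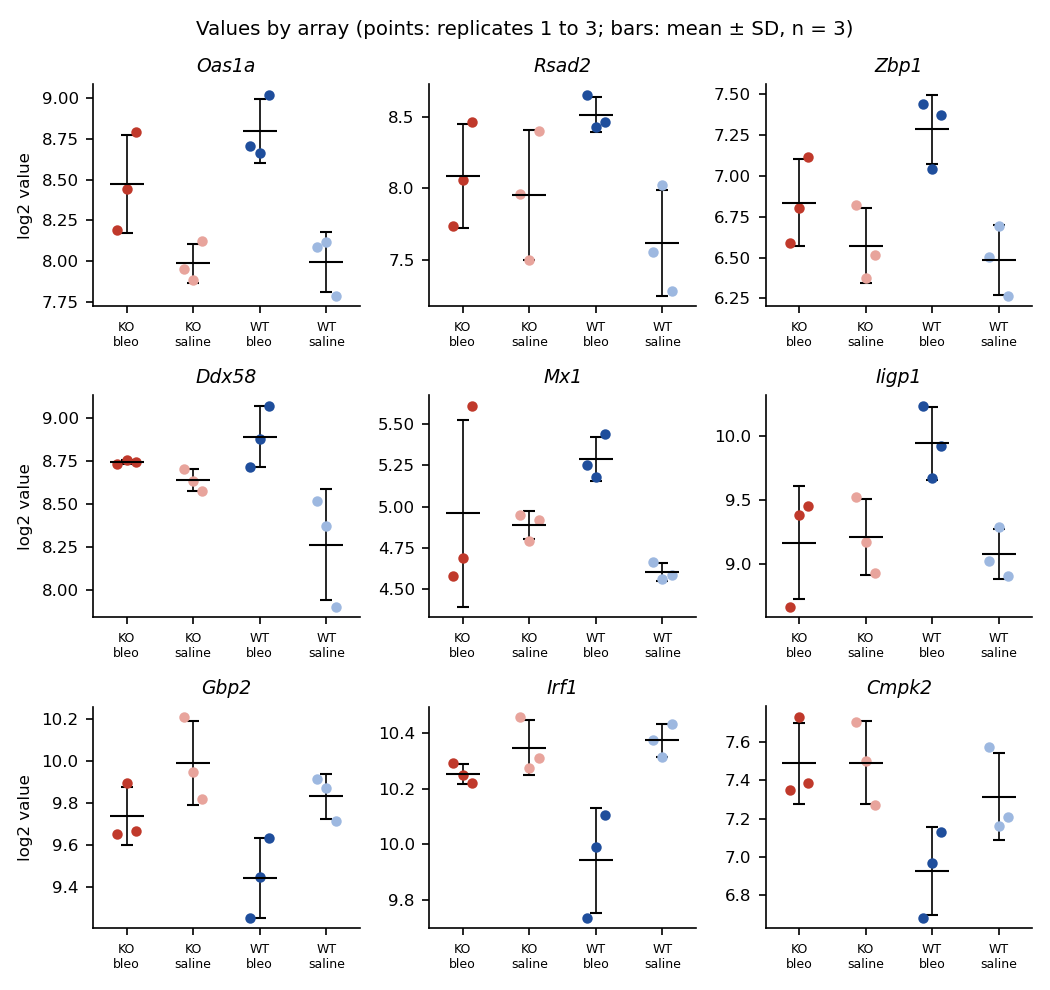
Log2 values by array for 9 interferon-stimulated genes in knockout bleomycin, knockout saline, wild type bleomycin and wild type saline lungs. Points are arrays (replicates 1 to 3, left to right) and bars are mean ± SD (n = 3); each axis is cut to its gene's range. All bleomycin arrays of Oas1a lie above the saline arrays of their genotype, and the wild type bleomycin arrays of Iigp1 lie above all other arrays drawn for it.

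Whether the responses differ between the genotypes was tested as the knockout response minus the wild type response. None of the 35 genes passed, where 5.02% of all genes did (2.03% higher and 3% lower). At an unadjusted p under 0.05 there were 8, with 6 lower and 2 higher, against 21.8% of all genes. Ifit2 was closest, at -0.55 ± 0.16 (adjusted p = 0.0621), with log2 values of 8.11, 7.82 and 8.17 in knockout bleomycin, 8.26, 8.19 and 8.47 in knockout saline, 8.13, 8.39 and 8.36 in wild type bleomycin and 7.92, 8.06 and 8.07 in wild type saline lungs. Its values moved in opposite directions in the genotypes, with changes of -0.27 in knockout and 0.28 in wild type, neither of which passed. Iigp1 followed at -0.91 ± 0.30 (adjusted p = 0.0999, 95% interval -1.56 to -0.26), and its second probe set passed at -1.03. For the other genes that rose in wild type, the intervals of the difference are wide. They ran between -1.48 and -0.05 for Rsad2, -0.77 and 0.14 for Oas1a, and -0.94 and -0.11 for Ddx58. Ifit2 passed without wild type bleomycin replicate 1, Mx1 without knockout bleomycin replicate 3, and Ifi35, with a higher response in knockout, without wild type saline replicate 3. Passing in wild type and not in knockout lungs does not show a difference between the responses.

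After saline, none of the 35 genes passed between knockout and wild type lungs, where 0.489% of all genes did. At an unadjusted p under 0.05 there were 2 (Ddx58 at 0.38 and Ifit2 at 0.29, both with higher values in knockout), against 10.1% of all genes. Ddx58 read 8.70, 8.63 and 8.58 in knockout saline lungs, against 8.51, 8.37 and 7.90 in wild type saline lungs. The Ddx58 arrays did not overlap, with wild type saline replicate 3 the lowest of the 12. Over the 35 genes, knockout saline arrays lay above for 4 and below for 0, against 7.28% and 9.45% of all genes.

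After bleomycin, 2 of the 35 genes were higher and 1 was lower in knockout than in wild type lungs, where 15.4% of all genes differed (7.52% higher and 7.89% lower). Iigp1 was lower, with 8.66, 9.38 and 9.45 in knockout bleomycin lungs, against 10.24, 9.67 and 9.92 in wild type bleomycin lungs (log2 difference -0.78 ± 0.21, adjusted p = 0.0261). The second probe set of Iigp1 gave -0.88. Cmpk2 was higher, with 7.35, 7.73 and 7.39 in knockout and 6.68, 6.97 and 7.13 in wild type bleomycin lungs (0.56 ± 0.16, adjusted p = 0.0271), though its second probe set gave 0.19 and did not pass. Irf1 was also higher, at 10.29, 10.25 and 10.22 in knockout against 9.73, 9.99 and 10.10 in wild type bleomycin lungs (0.31 ± 0.09, adjusted p = 0.0409), a call that held in 9 of 19 alternatives. For these 3 genes the arrays of the genotypes did not overlap. Over the 35 genes, knockout arrays lay above for 4 and below for 1, against 18% and 15.4% of all genes.

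Single arrays decided how many genes passed in that comparison. Without knockout bleomycin replicate 3, 7 listed genes were lower in knockout (Iigp1, Zbp1, Ifit1, Oas1a, Oas2, Oasl2 and Mx1) and 1 was higher (Cmpk2), where 13.1% of all genes differed. Mx1 then differed by -0.66 after bleomycin and by -0.95 between the responses, and passed in both. Without wild type bleomycin replicate 1, 0 genes passed in either direction. Without wild type bleomycin replicate 2, 0 were higher and 2 lower. Without wild type bleomycin replicate 3, 0 were lower. Without knockout bleomycin replicate 1, 1 was higher and 0 lower. Without knockout bleomycin replicate 2, 0 were higher. Without wild type saline replicate 1 or knockout saline replicate 2 or 3, 1 was higher. Knockout bleomycin replicate 3 was the highest of its group in 22 of the 27 genes other than Gbp and Irg. It also had the highest level of heart muscle markers in its group, a mean log2 value of 9.49 against 7.19 on the lowest array, and the highest level of fat markers (7.50 against 5.60). The part of these tissues in the result was not tested.

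**Figure D3:**
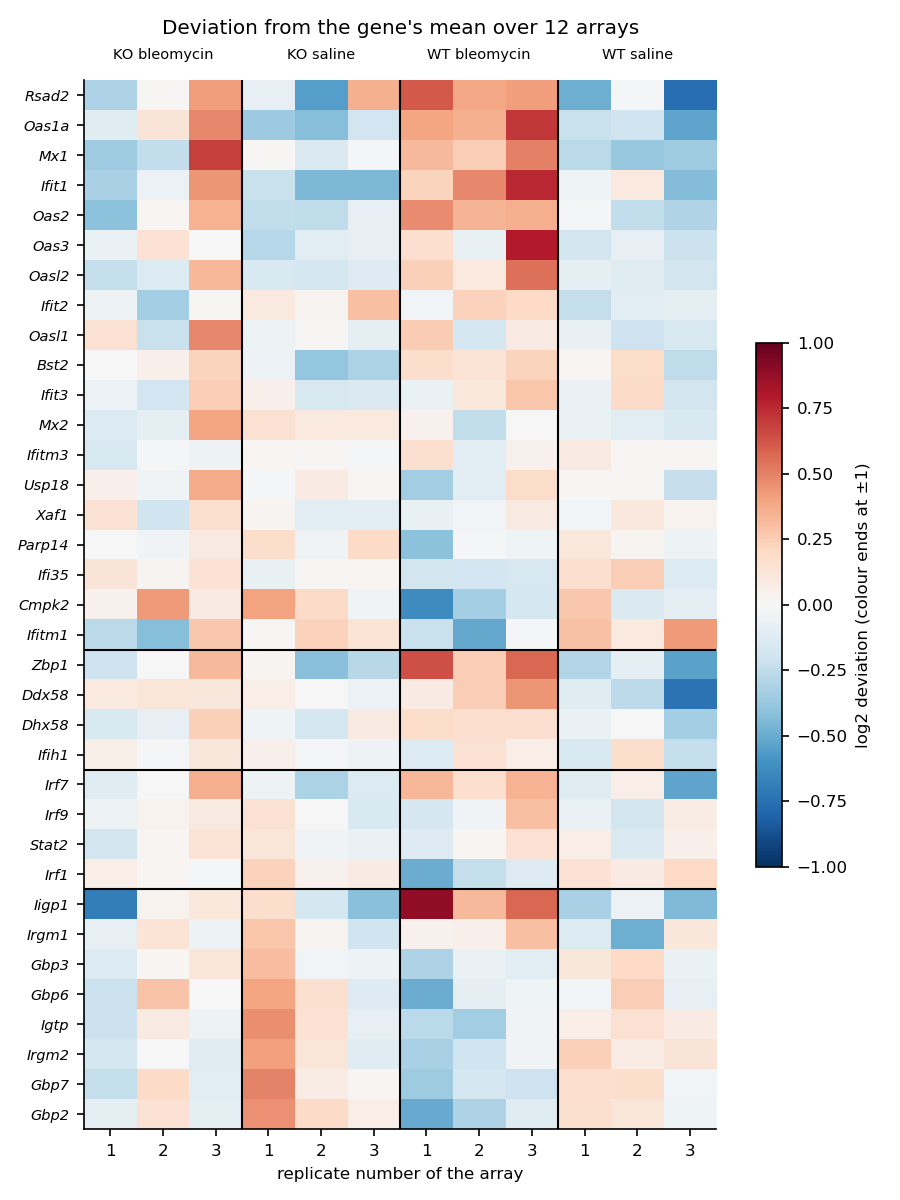
Log2 deviation of each interferon-stimulated gene from its own mean over the 12 arrays, with the arrays in columns by group and replicate and the genes in lines grouped by role. Colours end at ± 1. Rsad2, Oas1a, Mx1, Ifit1, Oas2 and Zbp1 lie above their means on knockout bleomycin replicate 3 and on all wild type bleomycin arrays, and the 8 Gbp and Irg genes do so on knockout saline replicate 1.

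The classes were then set side by side over the 4 groups. For each array, the deviations of the genes from their 12-array means were averaged over a class. The 27 genes other than Gbp and Irg averaged 0.04 ± 0.18 in knockout bleomycin, -0.05 ± 0.06 in knockout saline, 0.12 ± 0.11 in wild type bleomycin and -0.10 ± 0.10 in wild type saline lungs (SD, n = 3). The 8 Gbp and Irg genes averaged -0.05 ± 0.17 in knockout bleomycin, 0.11 ± 0.25 in knockout saline, -0.07 ± 0.11 in wild type bleomycin and 0.01 ± 0.05 in wild type saline lungs. The wild type bleomycin and saline arrays of the first class did not overlap, and the arrays overlapped in the other 3 cases. In knockout lungs the class means rested on single arrays. Without knockout bleomycin replicate 3, the 27 genes averaged -0.07 in knockout bleomycin and -0.05 in knockout saline lungs, so that the sign of the difference turned. Without knockout saline replicate 1, the Gbp and Irg genes averaged -0.05 in knockout bleomycin and -0.03 in knockout saline lungs. The pooled class also joins families whose mean changes had opposite signs in wild type lungs. The Irg genes were themselves mixed there. Igtp and Irgm2 had negative changes, like the Gbp genes, and Irgm1 and Iigp1 had positive ones, that of Iigp1 being the largest. The 4 Gbp genes averaged -0.01 ± 0.17 in knockout bleomycin, 0.16 ± 0.23 in knockout saline, -0.23 ± 0.16 in wild type bleomycin and 0.08 ± 0.12 in wild type saline lungs, and the wild type arrays did not overlap. The 4 Irg genes averaged -0.08 ± 0.18 in knockout bleomycin, 0.05 ± 0.27 in knockout saline, 0.08 ± 0.12 in wild type bleomycin and -0.05 ± 0.03 in wild type saline lungs, with arrays that overlapped in both genotypes. The median log2 change with bleomycin was -0.18 in knockout and -0.29 in wild type lungs for the Gbp and Irg genes, and 0.10 in knockout and 0.19 in wild type lungs for the others. The first median minus the second was -0.28 in knockout and -0.48 in wild type lungs. Leaving out single arrays moved the knockout value between -0.41 and -0.14, the smallest in size without knockout saline replicate 1, and the wild type value between -0.52 and -0.41. Between knockout and wild type lungs the same difference of medians was 0.07 after saline, between -0.05 and 0.19 with single arrays left out, and 0.26 after bleomycin, between 0.14 (without knockout bleomycin replicate 2) and 0.30. These medians are descriptions and carry no test.

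Arrays of a group were ranked by each gene. In knockout saline lungs replicate 1 was the highest of its group for all 8 Gbp and Irg genes and replicate 3 the lowest for all 8. Knockout bleomycin replicate 1 was the lowest of its group for all 8. For the other 27 genes, wild type bleomycin replicate 3 was the highest of its group in 17, and wild type saline replicate 3 the lowest in 18. Knockout bleomycin replicate 1 was the lowest of its group in 17 of those 27. The order was mixed among the 8 Gbp and Irg genes in wild type saline lungs. There the highest array was replicate 1 for 2 genes, replicate 2 for 5 and replicate 3 for 1. The median SD of the 35 genes within a group was 0.21 in knockout bleomycin (0.11 over all genes), 0.13 in knockout saline (0.08 over all genes), 0.16 in wild type bleomycin (0.11 over all genes) and 0.14 in wild type saline lungs (0.12 over all genes). Mx1 had the largest within-group SD, at 0.57 in knockout bleomycin lungs.

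**Figure D4:**
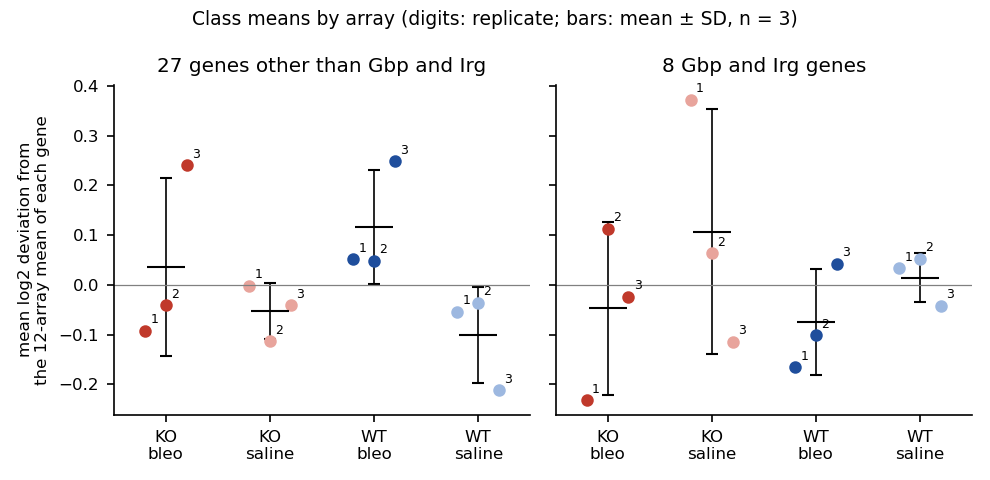
Mean log2 deviation per array from each gene's 12-array mean, for the 27 genes other than Gbp and Irg (left) and the 8 Gbp and Irg genes (right). Points are arrays with their replicate number, and bars are mean ± SD (n = 3). Knockout bleomycin replicate 3 lies with the wild type bleomycin arrays in the left panel, and knockout saline replicate 1 is the highest point in the right panel.

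The rest of the interferon pathway was read on 76 measured genes of 86 listed, from ligands to targets. With bleomycin, 1 rose and 0 fell in knockout lungs, 18 rose and 5 fell in wild type lungs, and between the responses 4 were lower and 0 higher. Those called in either direction were 1.32% of the 76 in knockout (3.26% of all genes) and 30.3% in wild type (27.7% of all genes). Between the responses they were 5.26% (5.02% of all genes). With both directions pooled, the shares lay below or near those of all genes. By direction, 13.3% of all genes rose and 14.4% fell in wild type lungs, whereas rises outnumbered falls among the 76. Between the responses, 2.03% of all genes were higher and 3% lower. The median log2 change of the 76 genes was 0.02 in knockout and 0.09 in wild type lungs. The ligands were dim. Ifng, interferon gamma, lay between 3.17 and 3.57 in wild type bleomycin lungs and passed in no comparison, and neither did Ifnb1, interferon beta. Among the receptors, the chain Ifngr2 rose in wild type lungs by 0.88 ± 0.23 (adjusted p = 0.0109), while Ifngr1 (-0.07) and Ifnar1 (0.23) did not pass, and Ifnlr1, of the receptor for lambda interferons, fell by 0.28.

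The 3 largest wild type changes of pathway genes exceeded that of any listed gene. Socs3, a feedback inhibitor of cytokine receptors, had log2 values of 9.01, 9.24 and 9.98 in knockout bleomycin, 8.87, 8.71 and 8.71 in knockout saline, 11.22, 10.80 and 10.97 in wild type bleomycin and 8.82, 8.68 and 8.66 in wild type saline lungs. Its change of 0.65 in knockout did not pass (adjusted p = 0.0889), and it rose by 2.27 ± 0.19 in wild type (adjusted p = 3.71e-06). Cxcl10, a T cell-attracting chemokine induced by both kinds of interferon, had log2 values of 5.24, 5.45 and 6.35 in knockout bleomycin, 4.78, 4.96 and 4.85 in knockout saline, 7.24, 6.78 and 7.21 in wild type bleomycin and 5.00, 5.03 and 4.80 in wild type saline lungs. Its knockout change was 0.82 (adjusted p = 0.0671), against a wild type rise of 2.13 ± 0.22 (4.39-fold, adjusted p = 1.91e-05). Cxcl9, its relative and the more specific target of interferon gamma, had log2 changes of 0.88 ± 0.23 in knockout (adjusted p = 0.0592) and 2.03 ± 0.23 in wild type lungs (adjusted p = 3.67e-05).

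The knockout response was smaller than the wild type response for 4 pathway genes. The difference was -1.62 ± 0.27 for Socs3 (adjusted p = 0.00698), -1.31 ± 0.31 for Cxcl10 (adjusted p = 0.0329), -0.72 ± 0.16 for Sting1, the adaptor of cytosolic DNA sensing (adjusted p = 0.026), and -0.63 ± 0.14 for Irf5, a factor downstream of Toll-like receptors (adjusted p = 0.0242). The call of Socs3 held in all 18 alternatives run for this comparison, that of Sting1 in 13, that of Irf5 in 12 and that of Cxcl10 in 9. For Cxcl9 the difference was -1.14 ± 0.33 (adjusted p = 0.0621). Among other regulators and sensors, Stat3 (0.41), Tlr7 (0.66) and Myd88 (0.38) rose in wild type lungs. Of the further targets of type I interferon, Lgals3bp (0.90) and Epsti1 (0.55) rose there, and Trim21 fell by 0.50. The calls of Myd88 and Lgals3bp held in all 19 alternatives run. Those of Stat3, Tlr7, Epsti1 and Trim21 held in 18, with the limma adjusted p reaching 0.072, 0.59, 0.082 and 0.10 in the other. The other genes of the 5 that fell in wild type, Pias1 (-0.36), Helz2 (-0.35) and Pml (-0.35), are named after their values were seen. Ifi30, a lysosomal thiol reductase of antigen processing, was the gene that rose in knockout lungs, with log2 changes of 0.40 ± 0.09 in knockout (adjusted p = 0.0274) and 0.58 ± 0.09 in wild type (adjusted p = 0.000327).

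**Figure D5:**
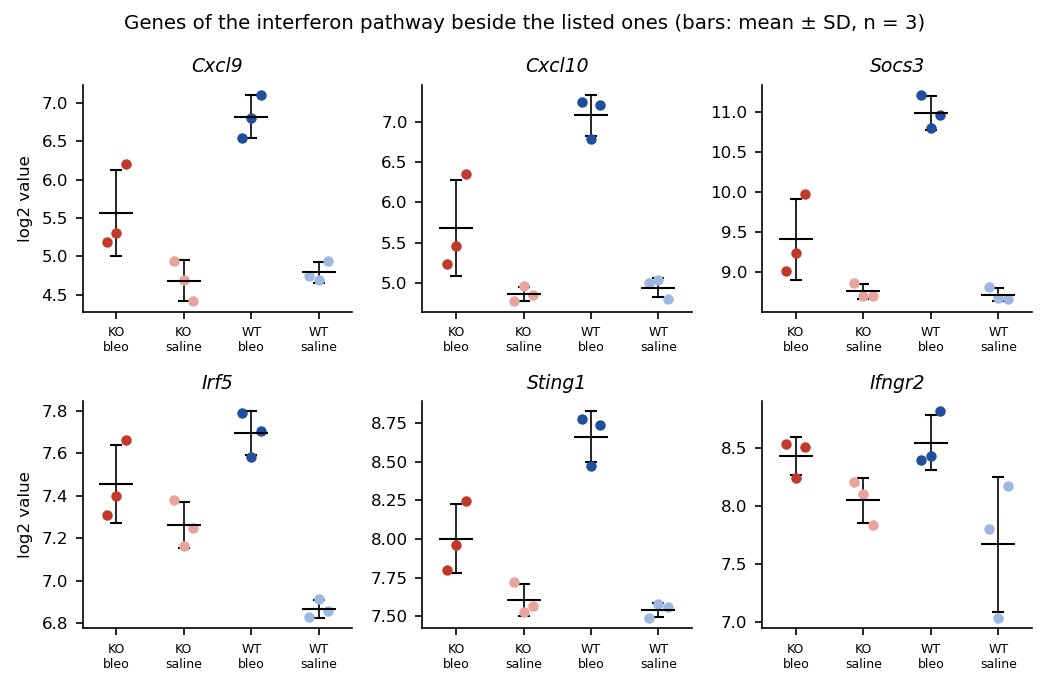
Log2 values by array for 6 genes of the interferon pathway outside the 38 listed genes, in knockout bleomycin, knockout saline, wild type bleomycin and wild type saline lungs. Points are arrays (replicates 1 to 3, left to right), bars are mean ± SD (n = 3), and each axis is cut to its gene's range. All wild type bleomycin arrays of Cxcl9, Cxcl10, Socs3 and Sting1 lie above all other arrays drawn.

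After bleomycin, 5 pathway genes were lower and 1 was higher in knockout than in wild type lungs, 7.89% of the 76 against 15.4% of all genes. Socs3 differed by -1.58 ± 0.19 (adjusted p = 0.000219), Cxcl10 by -1.39 ± 0.22 (adjusted p = 0.00121), Cxcl9 by -1.25 ± 0.23 (adjusted p = 0.00314) and Sting1 by -0.66 ± 0.11 (adjusted p = 0.00212). Each of these 4 passed in all 19 alternatives run for it, which did not include single probe sets. Trim24 (-0.31) and Ifna1 (0.32), named after their values were seen, were the others. After saline, none of the 76 genes passed.

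Markers of leukocytes and other cells moved in the same comparisons, where 3.26% of all genes passed in knockout and 27.7% in wild type lungs. Of 10 measured markers of NK and cytotoxic cells, none passed in knockout lungs and 10 fell in wild type lungs with bleomycin. Their mean log2 level was 6.31 to 6.71 in knockout bleomycin, 6.88 to 6.98 in knockout saline, 5.34 to 5.70 in wild type bleomycin and 6.61 to 6.95 in wild type saline lungs. NK and cytotoxic cells are a main source of interferon gamma. After bleomycin, 9 of their 10 markers were higher in knockout than in wild type lungs (7.52% of all genes). So were 4 of 9 T cell, 3 of 5 B cell, 5 of 9 neutrophil and 3 of 8 plasmacytoid dendritic cell markers. The same held for 3 of 7 endothelial and 2 of 6 lung epithelium markers. Lower were 4 of 10 macrophage and monocyte markers (1 was higher), 1 of 9 neutrophil and 1 of 3 Ly6c-type monocyte markers (7.89% of all genes). Of 10 macrophage and monocyte markers, 4 rose in knockout and 7 in wild type lungs, and 4 had a lower response in knockout (3% of all genes). Their mean level was 9.14 to 9.35 in knockout bleomycin, 8.67 to 8.82 in knockout saline, 9.48 to 9.76 in wild type bleomycin and 8.48 to 8.76 in wild type saline lungs. Of 8 markers listed for plasmacytoid dendritic cells, which make type I interferon, 0 passed in knockout and 3 fell in wild type lungs. In wild type, 7 of the 8 changes were negative. The largest was that of Cox6a2, with mean log2 values of 7.64 after bleomycin and 8.94 after saline. In wild type, 8 of 8 heart muscle markers also fell, and whether Cox6a2 reads dendritic cells or muscle here was not tested. The wild type arrays of Siglech overlapped, at 4.74, 4.61 and 4.88 after bleomycin against 4.84, 5.18 and 4.83 after saline. Whether plasmacytoid dendritic cells were fewer was not tested. With bleomycin, T cell markers fell for 2 of 9 in knockout and 6 of 9 in wild type lungs, B cell markers for 0 of 5 in knockout and 3 of 5 in wild type lungs, and endothelial markers for 2 of 7 in knockout and 4 of 7 in wild type lungs. Of 9 neutrophil markers, 4 fell in knockout, and 5 fell and 1 rose in wild type lungs. After saline, 5 of the neutrophil markers were higher in knockout than in wild type lungs (0.297% of all genes). Of 6 lung epithelium markers, 0 passed in knockout and 3 fell in wild type lungs. Of 3 markers of Ly6c-type monocytes, 0 passed in knockout and 2 rose in wild type lungs. Of 4 fat markers, 0 passed in knockout and 1 fell in wild type lungs. The part of these cells in the changes of the interferon-stimulated genes was not tested. Heart muscle markers fell too, 1 of 8 in knockout and 8 of 8 in wild type lungs, and their part was not tested either.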

How the data were processed

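The authors deposited 1 log2 value per probe set and array for 45101 probe sets on 12 arrays. Per the submitters' processing notes, affy, RMA and limma were used, and no versions or settings are given in the sources used here. RMA corrects background, equalizes the distributions of the arrays and summarizes probes on the log2 scale, so a change common to most genes is removed, and small changes of dim genes are compressed.

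Per the platform annotation, 34958 probe sets are paired with 1 gene, 932 with several and 9211 with none. Only the first kind was used (34754 matched by Entrez identifier), with the brightest probe set standing for its gene and no filter on dim genes. One limma 3.58.1 fit in R 4.3.3 held a mean per group for all 12 arrays. Its eBayes step used no trend, and the degrees of freedom were 8 residual and 4.86 prior. It gave 5 contrasts: the bleomycin response of each genotype, knockout response minus wild type response, and knockout against wild type after each agent. Benjamini-Hochberg adjustment ran over 18194 genes at 0.05. Intervals are 95% intervals of the fit, and the procedure was tested on simulated data.

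By the naming rule, all listed genes could be named, and of the pathway genes up to 3 per role with the smallest p in a comparison, plus Ifng, Ifnb1, Socs1, Ifngr1 and Ifnar1. The members, lists and shown promoters were chosen with earlier results of these data known. Alternatives were a mean level of at least 5, array medians subtracted, quantile normalization repeated, a trended and robust eBayes and averaging a gene's probe sets. Others were only the groups compared, the replicate number as a block and each array left out. Added after seeing the data were each probe set of the listed genes alone and class means without each array. Same-numbered arrays of different groups deviated from their group means with correlations of -0.30 to 0.20 (18 pairs, 2 over 0.1), so the numbers were not treated as pairs. One gene of the naming rule is not reported here. Promoter windows are from RefSeq (GRCm38.p6). Python 3.11.15 and matplotlib 3.10.9 made the figures.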

Additional observations from a re-analysis of the deposited data

Results flagged for a closer look

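Bleomycin responses differed between the genotypes, by the test of the difference itself, for 4 genes of the interferon pathway that are not among the 38 listed genes. They are 5.26% of the 76 such genes measured, near the 5.02% of all genes that passed. The knockout response minus the wild type response was -1.31 on the log2 scale for the chemokine Cxcl10 (limma, adjusted p = 0.0329), -0.63 for the factor Irf5 (adjusted p = 0.0242), -1.62 for the inhibitor Socs3 (adjusted p = 0.00698) and -0.72 for the adaptor Sting1 (adjusted p = 0.026). Over the alternatives the adjusted p ran between 0.0015 and 0.077 for Cxcl10, 0.0084 and 0.18 for Irf5, 0.00052 and 0.022 for Socs3, and 0.0087 and 0.073 for Sting1. The call of Cxcl10 was lost when any of 9 arrays was left out. That of Irf5 was also lost with the mean of its probe sets, at -0.26. Markers of macrophages and monocytes moved in the same comparison, 4 of 10 lower and 0 higher (3% and 2.03% of all genes), and their part was not tested.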

How the results depend on the processing

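No called value changed sign under any alternative. Fitting only the groups compared gave 37 genes between knockout and wild type after saline (89 in the fit of all arrays), and after bleomycin 1 listed gene higher (2) and 0 lower (1). With the replicate number as a block, 601 genes passed for the difference between responses (914), and 1 listed gene was higher in knockout after bleomycin (2). The block otherwise moved no count of calls by over 1.5 times. The cause of these shifts was not tested. With single arrays left out, 0 to 1 listed genes rose in knockout lungs, and 6 to 11 rose and 1 to 6 fell in wild type lungs. For the difference between responses, 0 to 1 were higher and 0 to 1 lower. After bleomycin, 0 to 3 were higher and 0 to 7 lower in knockout. Over all genes the calls then numbered 211 to 796 for bleomycin in knockout (594), 4052 to 5004 in wild type (5045), 380 to 1052 for the difference (914), 24 to 112 after saline (89) and 1653 to 3138 after bleomycin (2804). Fewer arrays enter each such fit. The probe set chosen decided calls of Gbp6 and Xaf1, which passed in wild type on a second probe set (-0.45 and -0.29), and of Iigp1 in the difference. Dim genes such as Ifng lie near the low end of the array's signal, where changes may not be seen.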
